A study of Mus musculus with 12 samples.

Results

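Tmprss4, Dnah1, Paxx and Gm11832 are 4 of the 34986 genes measured in mouse liver. They were selected on their higher normalized counts in VPA_OCA than in VPA in the authors' deposited table, and on belonging to no bile acid or drug pathway. Both groups were livers of female C57BL/6 mice aged 16 weeks, 6 mice each. The VPA group received valproic acid, a drug against seizures with known liver toxicity. The VPA_OCA group received valproic acid with obeticholic acid, a modified bile acid and agonist of FXR, a nuclear receptor for bile acids. All 12 mice therefore carried valproic acid. The labels state no dose and no length of treatment, and livers without valproic acid were not analysed here. RNA came from whole flash-frozen liver.

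The 4 genes have unrelated products. Tmprss4 encodes a serine protease anchored in the plasma membrane of epithelial cells, which can activate the epithelial sodium channel. Dnah1 encodes a heavy chain of axonemal dynein, the motor of cilia and sperm tails. Paxx encodes a factor of non-homologous end joining, the pathway that rejoins broken DNA ends; its protein binds the Ku heterodimer and is related to XRCC4. Gm11832 is a long non-coding RNA with no known function, placed antisense to Rad54b, a helicase-like gene of homologous recombination. FXR acts mainly as a heterodimer with RXR on inverted repeats of the hexamer AGGTCA.

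The windows before the transcription starts are shown because they bear on whether such a repeat lies there. Of the 4 genes, 2 were matched in the RefSeq promoter table (GRCm38.p6), Dnah1 (chr14:31323897-31324146, minus strand) and Paxx (chr2:25461095-25461344, minus strand). Each sequence holds the 250 bases before the start, and capitals mark a match to any of the 8 motifs searched.
Dnah1: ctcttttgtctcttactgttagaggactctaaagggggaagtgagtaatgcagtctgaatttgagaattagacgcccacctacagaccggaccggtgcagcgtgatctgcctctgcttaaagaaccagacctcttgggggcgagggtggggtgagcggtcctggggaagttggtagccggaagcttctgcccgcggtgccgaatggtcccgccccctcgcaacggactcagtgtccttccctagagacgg
Paxx: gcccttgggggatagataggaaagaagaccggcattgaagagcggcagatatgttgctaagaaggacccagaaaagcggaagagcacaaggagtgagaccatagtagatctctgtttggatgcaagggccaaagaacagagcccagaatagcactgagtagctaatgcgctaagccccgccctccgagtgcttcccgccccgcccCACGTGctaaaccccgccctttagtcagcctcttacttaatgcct
Both strands were searched for the nuclear receptor hexamers AGGTCA and GGGTCA, for the FXR-type inverted repeat with 1 base between its hexamers (IR-1) in an exact and a relaxed form, and for the TATA box TATAAA, the CCAAT box, GTTGCC of the RFX box and the E-box CACGTG. The exact IR-1 contains AGGTCA and is a case of the relaxed form, and CACGTG overlaps none of the others. The Dnah1 window held none of the 8. The Paxx window held CACGTG once, its first base at position -45 from the start, a hexamer found in 6.02% of 32851 windows of the same length. AGGTCA occurs in 14.0% of those windows, GGGTCA in 11.6%, CCAAT in 33.8%, TATAAA in 12.4% and GTTGCC in 10.4%. The exact and relaxed IR-1 occur in 0.00609% and 0.0304%.

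The middle exon of Gm11832 is shown because it is the only one of its 3 exons that faces an exon of Rad54b (chr4:11612251-11612378, minus strand, GRCm38, from the GENCODE M21 transcript).
Gm11832 exon 2: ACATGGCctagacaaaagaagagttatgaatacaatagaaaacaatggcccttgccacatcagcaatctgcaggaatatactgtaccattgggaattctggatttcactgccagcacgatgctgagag
The capitals mark the 7 bases that lie opposite coding exon 13 of Rad54b. They are 1.62% of the 432 exon bases of Gm11832, so nearly all of its exon sequence lies opposite introns of Rad54b.

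Values are the authors' normalized counts, which are estimated read counts per gene divided by a factor per library. They summed to 20236900 to 22087711 per library, from estimated depths of 17879222 to 37766890 reads. Log2 differences were taken after adding 1 to each normalized count, so they understate changes of low genes. Of 19006 genes tested with limma, 84 were higher in VPA_OCA (0.442%) and 53 lower (0.279%), 137 in all. With the replicate number as a block, 210 passed, and with a term for numbers 1 to 3 against 4 to 6, 404. Of 6 tested FXR reference genes 1 rose, 1 fell and 4 did not pass. Slc51a, of the same list, was listed at 0 in all 12 libraries and was not tested. The bile acid exporter subunit Slc51b rose from 19.1 ± 8.78 to 174 ± 44.6, and the bile acid synthesis enzyme Cyp8b1 fell from 2484 ± 689 to 528 ± 252 (SD, n = 6 each; limma adjusted p = 5.7e-05 and 0.0013). The FXR targets Nr0b2 (451 ± 167 and 849 ± 460; limma adjusted p = 0.57) and Abcb11 (8930 ± 2809 and 12050 ± 3016; limma adjusted p = 0.53) did not pass. With the term for the numbers Abcb11 had a limma adjusted p of 0.025. The hepatocyte markers Alb, Apoa1 and Ttr were the most abundant of their list in both groups, and none of the 9 on it passed the test, with Hnf4a alone at an unadjusted p under 0.05.

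All 4 genes passed the filter on low values, and for all 4 every VPA_OCA library lay above every VPA library. The same held for 174 of the 19006 genes, 0.916%. The members were chosen for this contrast, so it is described here without a test. In the authors' deposited table their log2 ratios were 2.39 for Tmprss4, 1.44 for Dnah1, 1.38 for Gm11832 and 1.06 for Paxx. Among all 34986 genes these took places 6, 17, 22 and 45 from the highest.

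**Figure D1:**
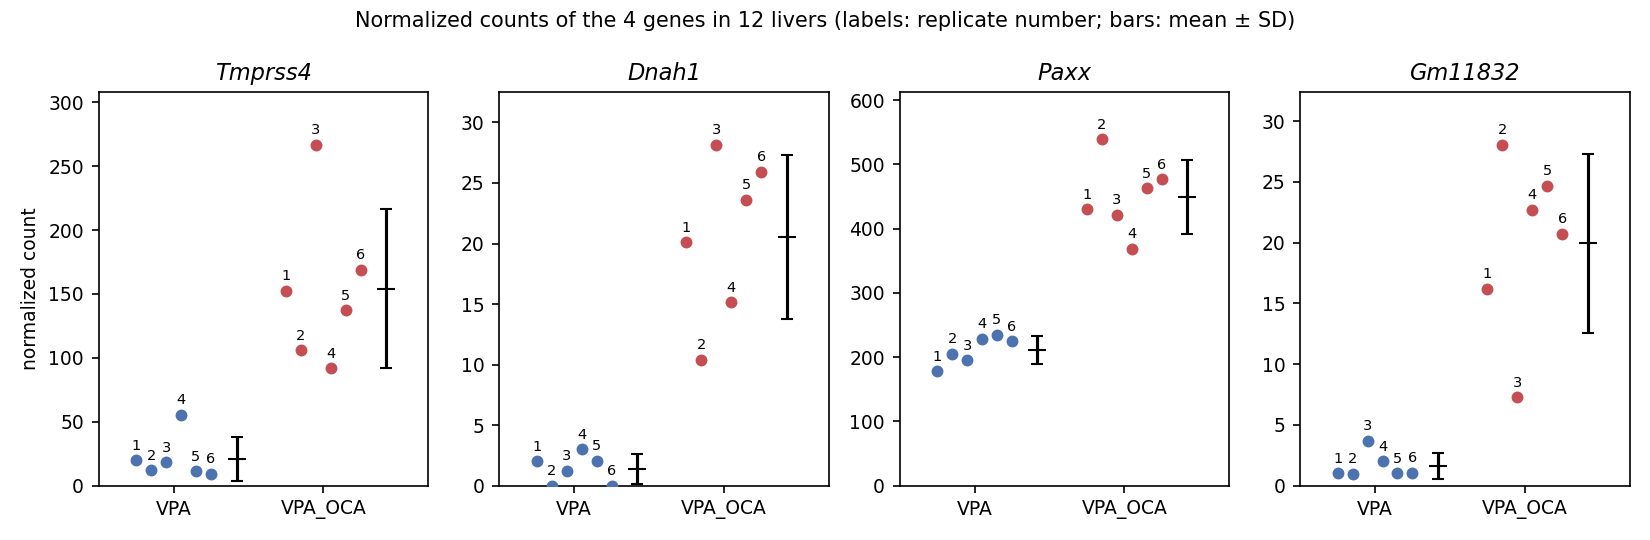
Normalized counts of Tmprss4, Dnah1, Paxx and Gm11832 (vertical axes, each with its own scale) in 6 VPA livers (blue) and 6 VPA_OCA livers (red), with the replicate number beside each point and the group mean ± SD in black. The groups do not overlap for any of the 4, and Tmprss4 stands highest in VPA replicate 4 (55.4) and VPA_OCA replicate 3 (267).

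Tmprss4 (ENSMUSG00000032091, chromosome 9, 45172726 to 45204092, minus strand, GRCm38) measured between 9.49 and 55.4 normalized counts in VPA, with a median of 15.2. In VPA_OCA it measured between 91.9 and 267, with a median of 145. The VPA libraries other than replicate 4 lay at or below 20.1, and the VPA_OCA libraries other than replicate 3 at or below 169. The mean went from 21.1 ± 17.3 to 154 ± 62.3 (SD, n = 6 each), a ratio of 7.29, and the log2 difference was 2.99 ± 0.36 (SE). Without VPA replicate 4 the VPA mean was 14.3 ± 4.67 (n = 5) and the ratio 10.8. Without VPA_OCA replicate 3 the VPA_OCA mean was 131 ± 32.0 (n = 5) and the ratio 6.22. These values rest on 122 reads in VPA and 1007 in VPA_OCA, estimated from the worth of 1 read in each library.

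The libraries where Tmprss4 was highest also stood apart in some transcripts of other cells. VPA_OCA replicate 3 held the epithelial keratin Krt19 at 98.0 normalized counts, against 10.6 to 26.8 in the other 5 VPA_OCA libraries. The mucin Muc1 measured 102 there, against 3.92 to 9.34, and the junction protein Cldn7 17.7, against 4.33 to 9.34. The keratin Krt7, of the same marker list, was also highest there, at 39.25, against 9.85 to 26.2. Other genes of the list were not the highest there. Epcam measured 28.2, against 10.1 to 29.0 in the others, Elf3 14.6, against 2.80 to 17.6, and Cdh1 375, against 346 to 851. The summed biliary epithelium list was 1780 in that library and highest in VPA_OCA replicate 6 (2113). Within VPA these markers did not follow Tmprss4. In replicate 4 Krt19 measured 13.1 and Muc1 3.02, each the lowest of the group. Cldn7 (3.02) and Krt7 (19.35) were not the highest of the group in that library. That library held skeletal muscle transcripts, a summed 771 normalized counts over 13 marker genes. The sum was 191 in VPA replicate 5 and 9.49 to 36.3 in the other 10 libraries, and Tmprss4 measured 11.4 in VPA replicate 5. VPA replicate 4 was also the highest of the 12 libraries in the summed markers of leukocytes (5537; 2231 to 5537 in VPA and 2487 to 4083 in VPA_OCA) and of endothelial cells (3952; 2108 to 3952 and 2176 to 3275).

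**Figure D2:**
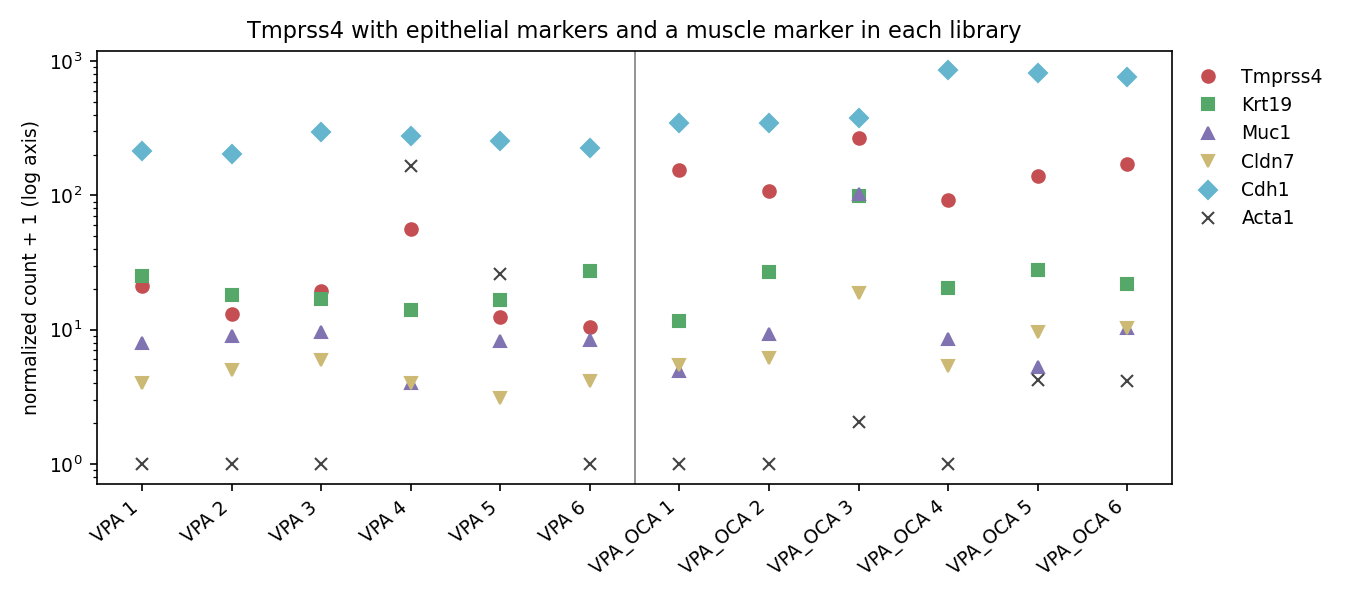
Normalized count + 1 (log axis) of Tmprss4, the epithelial markers Krt19, Muc1, Cldn7 and Cdh1 and the muscle marker Acta1 in each of the 12 libraries, each point 1 library. Krt19 (98.0), Muc1 (102) and Cldn7 (17.7) stand highest in VPA_OCA replicate 3 together with Tmprss4, while in the other VPA_OCA libraries Tmprss4 is high with Krt19 at 10.6 to 26.8.

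Over the whole list of 14 biliary epithelium markers, 13 were tested, 1 rose and 12 did not pass, of which Krt23 and Cldn7 had an unadjusted p under 0.05. The one that rose was Cdh1, the epithelial cadherin, from 244 ± 35.4 to 583 ± 251 (SD, n = 6 each; limma adjusted p = 0.037). Its call was lost when any single library other than VPA_OCA replicates 1, 2 and 3 was left out (limma adjusted p from 0.050 to 0.10). Cdh1 was lower in VPA_OCA replicates 1 to 3 (346 to 375) than in 4 to 6 (758 to 851), an order that Tmprss4 did not share. The summed list ranged from 1018 to 1442 in VPA and from 1282 to 2113 in VPA_OCA, and none of its genes was at 0 in all libraries. Of 9 gut epithelium markers 4 were tested and none passed by limma; Fabp2 and Muc2 had an unadjusted p under 0.05. Fabp2, an intestinal fatty acid binding protein gene, measured 2144 ± 574 and 3711 ± 1544 (limma adjusted p = 0.18, and 0.040 with the term for the numbers). Cdx1, Cdx2, Guca2b and Reg3b were listed at 0 in all 12 libraries. The part of other cells in the Tmprss4 values was not tested, and in whole tissue more cells of a type and more RNA per cell cannot be told apart. None of the markers of leukocytes (11), endothelial cells (7), stellate cells (7), skeletal muscle (5 of 13 tested) or pancreatic acinar cells (2 of 8 tested) passed by limma; Lyve1 and Cela2a had an unadjusted p under 0.05. Lyve1, of the liver sinusoid endothelium, measured 164 ± 32.5 and 105 ± 23.5 (limma adjusted p = 0.12, and 0.031 with the term for the numbers).

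Among the other 19 genes of membrane-anchored serine proteases in the table, 10 were tested, none rose, 1 fell and 9 did not pass. The liver proteases Hpn (hepsin) and Tmprss6 (matriptase-2, which lowers hepcidin expression) were the abundant ones. Hpn measured 8374 ± 327 and 9016 ± 580 (limma adjusted p = 0.77), and Tmprss6 9419 ± 991 and 8668 ± 1178 (limma adjusted p = 0.82). Corin, which processes natriuretic peptides, fell from 19.2 ± 6.15 to 5.18 ± 4.62 (SD, n = 6 each; limma adjusted p = 0.042). Its call was lost with the replicate block (limma adjusted p = 0.062). It was also lost when any single library other than VPA_OCA replicates 4 and 5 was left out (limma adjusted p from 0.054 to 0.11). The list had a median log2 difference of -0.04, against -0.00 over all genes. Tmprss7 measured 1.23 ± 0.775 and 0.173 ± 0.425, and 5 of the 19 were listed at 0 in every library.

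Among 10 inhibitors and substrates of such proteases, 8 were tested and none passed by limma; at an unadjusted p under 0.05 stood Spint2 alone. Spint2, a Kunitz-type inhibitor of membrane proteases, measured 1065 ± 141 and 1426 ± 232 in VPA and VPA_OCA livers (limma adjusted p = 0.17). With the term for numbers 1 to 3 against 4 to 6 its limma adjusted p was 0.010. Scnn1a, the alpha subunit of the epithelial sodium channel, measured 641 ± 146 and 636 ± 188 (limma adjusted p = 0.99). Scnn1b was listed at 0 in all 12 libraries.

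Dnah1 (ENSMUSG00000019027, chromosome 14, 31260375 to 31323896, minus strand) measured between 0 and 3.02 normalized counts in VPA, with a median of 1.62. In VPA_OCA it measured between 10.4 and 28.2, with a median of 21.9. Replicates 2 and 6 of VPA were at 0, and the lowest VPA_OCA library, replicate 2, was 3.44 times the highest VPA library. The mean went from 1.39 ± 1.22 to 20.6 ± 6.76 (SD, n = 6 each), a ratio of 14.8, and the log2 difference was 3.30 ± 0.39 (SE). These values rest on 8 reads in all 6 VPA libraries and 134 in VPA_OCA. Scaled by depth, the summed reads had a ratio of 14.7 with an exact 95% interval of 7.23 to 34.6. The interval covers counting error only, not the spread between mice or the choice of the gene for this contrast, and is not a test. The annotation gives the gene 78 exon blocks with 13043 bases.

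No other dynein heavy chain gene passed. Of the other 16 dynein heavy chain genes 8 were tested and none passed by limma; at an unadjusted p under 0.05 stood Dnah11 and Dnah5. Dnah11 measured 15.6 ± 11.4 and 3.21 ± 1.21 (limma adjusted p = 0.10, and 0.025 with the term for the numbers). Dnah5, of the outer dynein arm, measured 2.36 ± 2.25 and 5.79 ± 2.09 (limma adjusted p = 0.34). The cytoplasmic dynein Dync1h1 measured 1842 ± 268 and 1546 ± 436 (limma adjusted p = 0.67). The median log2 difference of the 8 was 0.02.

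Markers of multiciliated cells, which carry motile cilia, did not pass. Of 18 genes 11 were tested and none passed by limma, with Rsph4a and Rsph1 at an unadjusted p under 0.05. The summed list ranged from 128 to 167 in VPA and from 121 to 156 in VPA_OCA. Foxj1, the master regulator of motile cilia, measured 6.42 ± 3.33 and 5.23 ± 1.78, and Rsph4a, of the radial spoke head, 45.6 ± 3.81 and 34.7 ± 10.3 (SD, n = 6 each). Tekt4 and Gmnc were listed at 0 in all 12 libraries.

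Paxx (ENSMUSG00000047617, chromosome 2, 25455141 to 25461094, minus strand) measured between 178 and 235 normalized counts in VPA, with a median of 215. In VPA_OCA it measured between 369 and 539, with a median of 446. Both groups were narrow, with a coefficient of variation of 10.4% in VPA and 12.8% in VPA_OCA. The mean went from 211 ± 21.9 to 450 ± 57.6 (SD, n = 6 each), a ratio of 2.13, and the log2 difference was 1.08 ± 0.11 (SE). For Tmprss4, Dnah1 and Gm11832 the coefficients of variation were 81.8%, 87.6% and 66.3% in VPA and 40.4%, 32.9% and 36.9% in VPA_OCA. Paxx was thus the steadiest of the 4 and the one with the smallest ratio.

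The other end joining factors did not pass. Of 12 tested genes none passed by limma, with Xrcc5 alone at an unadjusted p under 0.05. Their log2 differences were positive for 10 of 12, with a median of 0.15, against a median of -0.00 over all genes. The summed list without Paxx ranged from 1871 to 2071 in VPA and from 2156 to 2286 in VPA_OCA. These sums weigh abundant genes such as Xrcc5 most, and their difference between groups was not tested. Xrcc5, which encodes the Ku80 subunit, measured 421 ± 44.5 and 512 ± 43.2 (limma adjusted p = 0.25). Xrcc6, for Ku70, measured 289 ± 45.0 and 311 ± 19.7 (limma adjusted p = 0.82), and Nhej1, for XLF, 42.1 ± 6.84 and 52.5 ± 10.2 (limma adjusted p = 0.64). Prkdc, the catalytic subunit of the DNA-dependent protein kinase, measured 112 ± 23.8 and 133 ± 17.2 (limma adjusted p = 0.66).

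Of 12 genes of p53 signalling and the DNA damage response, none passed by limma and none had an unadjusted p under 0.05. Their median log2 difference was -0.04. Trp53inp1 measured 1297 ± 756 and 690 ± 243 (limma adjusted p = 0.53), and 0.034 with the term for the numbers. Cdkn1a, the cell cycle inhibitor p21, measured 67.7 ± 39.0 and 62.4 ± 33.0 (limma adjusted p = 0.98), and Mdm2 371 ± 72.1 and 350 ± 54.7 (limma adjusted p = 0.93).

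Gm11832 (ENSMUSG00000086103, chromosome 4, 11611139 to 11615007, minus strand) measured between 1 and 3.69 normalized counts in VPA, with a median of 1.05. In VPA_OCA it measured between 7.30 and 28.1, with a median of 21.7. Replicate 3 was the highest library of VPA and the lowest of VPA_OCA, and the other 5 VPA_OCA libraries lay at or above 16.2. The mean went from 1.63 ± 1.08 to 19.96 ± 7.36 (SD, n = 6 each), a ratio of 12.2, and the log2 difference was 2.97 ± 0.34 (SE). The values rest on 9 reads in VPA and 127 in VPA_OCA. Scaled by depth, the ratio was 12.3 with an exact 95% interval of 6.30 to 27.6 for counting error. As for Dnah1, it leaves out the spread between mice and the choice of the gene, and is not a test.

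Levels between genes can be compared per length, in the authors' FPKM. It uses the authors' model lengths, 786 bases for Paxx, 1689 for Tmprss4, 432 for Gm11832 and 7884 for Dnah1. The annotated exon bases were 2066, 2589, 432 and 13043 in the same order. Paxx was the most abundant, at 12.6 ± 1.48 FPKM in VPA and 26.9 ± 3.27 in VPA_OCA (SD, n = 6 each). Tmprss4 followed at 0.589 ± 0.495 and 4.32 ± 1.86, Gm11832 at 0.176 ± 0.114 and 2.16 ± 0.764, and Dnah1 at 0.00823 ± 0.00732 and 0.123 ± 0.0429. The order was the same in both groups. Tmprss4 and Gm11832 overlapped in FPKM across libraries, 0.255 to 1.57 and 0.105 to 0.388 in VPA and 2.50 to 7.70 and 0.823 to 2.96 in VPA_OCA, whereas the other neighbours in that order did not overlap.

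The members did not share 1 order of libraries. After the group means were subtracted, Tmprss4 and Dnah1 deviated together over the 12 libraries, with Pearson's r = 0.74 and Spearman's rho = 0.66. The value was 0.71 within VPA and 0.81 within VPA_OCA (6 libraries each), and 0.67 without VPA replicate 4 and VPA_OCA replicate 3. Within numbers 1 to 3 it was 0.88 and within 4 to 6 it was 0.74. VPA replicate 4 was the highest VPA library and VPA_OCA replicate 3 the highest VPA_OCA library for both genes. Dnah1 in VPA rests on 0 to 3 reads a library.

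The other 5 pairs gave r between -0.12 and 0.18. The pair of Tmprss4 and Gm11832 had r = -0.87 within VPA_OCA, where Gm11832 was lowest in the library in which Tmprss4 was highest, and 0.45 within VPA. Without VPA_OCA replicate 3 that value was -0.57 over 5 libraries. Over all 12 libraries it was -0.12, and it is given as a description of these libraries.

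**Figure D3:**
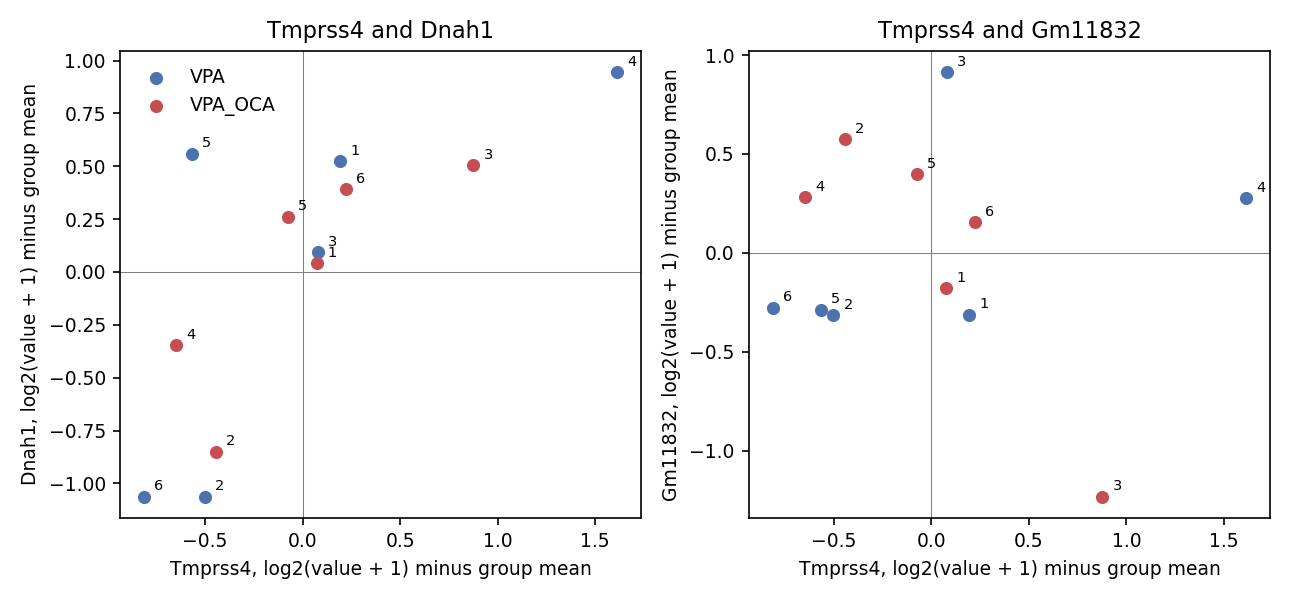
Deviation of Dnah1 (left, vertical axis) and Gm11832 (right, vertical axis) from the group mean against that of Tmprss4 (horizontal axes), all as log2(normalized count + 1), in 6 VPA (blue) and 6 VPA_OCA (red) libraries labelled by replicate number. Tmprss4 and Dnah1 deviate together (r = 0.74), and Gm11832 does not follow Tmprss4 (r = -0.12).

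The libraries of both groups also differ by replicate number, 1 to 3 against 4 to 6. The rule for the members did not use this contrast, but their choice is not independent of it. A difference between sets widens the spread within groups, so genes clearly raised between groups may tend to lack one. The members therefore cannot be set against the share of all genes. The mitochondrial share of the counts was 9.09% to 11.7% in numbers 1 to 3 and 5.84% to 7.51% in 4 to 6. By limma with both terms 4762 of 19006 genes differed between the sets, 25.1%, and 0 of the 4 members did, with unadjusted p from 0.43 to 0.80. The log2 difference of 4 to 6 minus 1 to 3 was -0.09 ± 0.36 (SE) for Tmprss4, 0.25 ± 0.39 for Dnah1, 0.08 ± 0.10 for Paxx and 0.18 ± 0.35 for Gm11832. Their limma adjusted p-values were 0.88, 0.70, 0.60 and 0.75. The interval of ± 2 SE was narrow for Paxx, -0.12 to 0.28, and wider for Tmprss4 (-0.80 to 0.62), Dnah1 (-0.54 to 1.04) and Gm11832 (-0.51 to 0.87).

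Within each set the ratio of VPA_OCA to VPA is given as a description, since the choice of the members fixes its direction. The ratio of means was 10.4 within 1 to 3 and 5.22 within 4 to 6 for Tmprss4, 18.1 and 12.7 for Dnah1, 2.40 and 1.90 for Paxx, and 9.06 and 16.6 for Gm11832 (n = 3 per group and set). Whether the size of the difference changed between sets was tested as an interaction, with the same limit from the choice of the members. By limma 2 of 19006 genes passed, 0.0105%, and 0 of the 4 members, also at an unadjusted p under 0.05 (p from 0.087 to 0.91). The difference of the 2 log2 differences was -0.49 ± 0.72 (SE) for Tmprss4, -0.09 ± 0.81 for Dnah1, -0.34 ± 0.18 for Paxx and 0.75 ± 0.69 for Gm11832. In VPA, Paxx lay between 178 and 205 in 1 to 3 and between 224 and 235 in 4 to 6. In VPA_OCA it lay between 421 and 539 and between 369 and 477. These ranges of 3 libraries each were not tested, and how many of all genes part so within VPA was not counted.

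**Figure D4:**
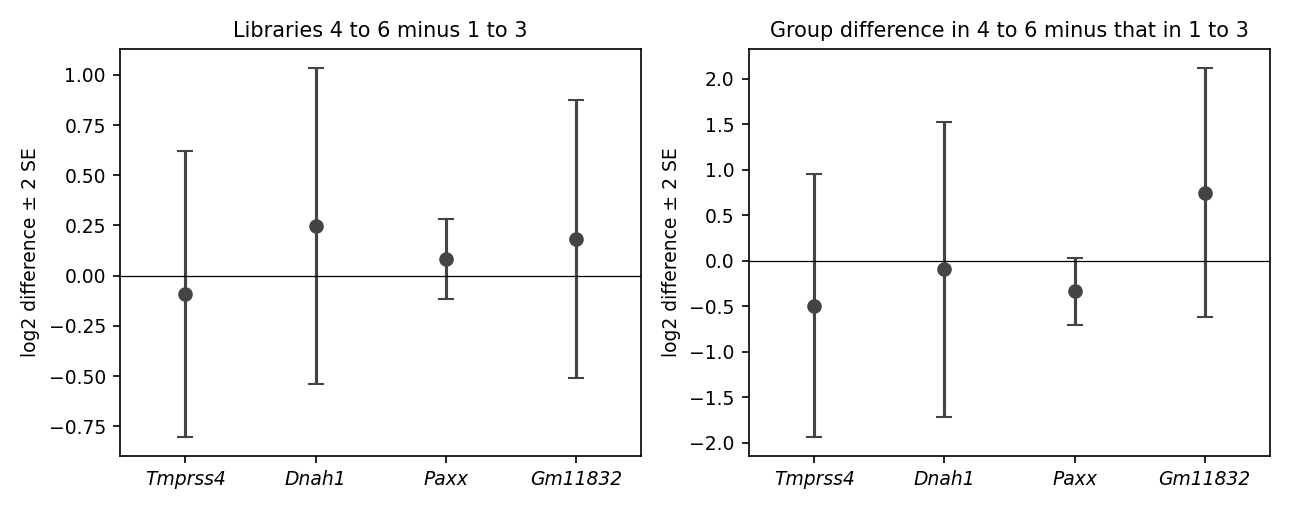
Log2 difference ± 2 SE for the 4 genes, on the left of libraries 4 to 6 minus libraries 1 to 3, on the right of the VPA_OCA minus VPA difference in 4 to 6 minus that in 1 to 3. All intervals include 0; the narrowest is that of Paxx, -0.12 to 0.28 on the left.

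The genes around each member were examined next. Ptgds, a prostaglandin D synthase gene on the same strand as Paxx and 5615 bases from it, was the only measured neighbour that passed by limma. It measured 7.02 to 24.2 in VPA and 182 to 642 in VPA_OCA (12.8 ± 6.34 and 483 ± 161, SD, n = 6 each; limma adjusted p = 7.7e-07). As Ptgds lies on the higher-coordinate side of Paxx and both are on the minus strand, it is upstream of Paxx. Within groups Paxx and Ptgds had r = 0.48 over 12 libraries. Between VPA_OCA libraries Ptgds was lowest in replicate 1, at 182, where Paxx measured 430, the fourth highest of the group.

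Clic3, a chloride intracellular channel gene, lies within the span of Paxx on the opposite strand but shares no exon base with it. It measured 0 to 3.16 in VPA and 3.36 to 6.26 in VPA_OCA, without overlap between groups, with a limma adjusted p of 0.11. With FPKM values in place of normalized counts its limma adjusted p was 0.032. On the far side of Paxx, the lipid transporter gene Abca2 measured 496 ± 233 and 750 ± 376 (limma adjusted p = 0.71), and 0.032 with the term for the numbers.

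Rad54b, which Gm11832 faces, measured 8.39 to 20.7 in VPA and 15.1 to 33.3 in VPA_OCA (12.5 ± 4.57 and 23.3 ± 7.68; limma adjusted p = 0.24). The groups overlapped, and the log2 difference of 0.84 ± 0.27 (SE) was smaller than the 2.97 of Gm11832. The 2 genes had r = 0.53 over 12 libraries after the group means were subtracted. Whether counting used strand is not given in the sources used here. The exons of the pair share 7 bases. Fsbp, within Rad54b, measured 10.9 ± 2.97 and 12.3 ± 10.2 (limma adjusted p = 0.95), and Gem, the nearest measured gene on the other side at 89450 bases, 28.2 ± 4.86 and 31.4 ± 5.45 (limma adjusted p = 0.87).

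BC049352 overlaps Tmprss4 on the opposite strand over 22086 bases, without a shared exon base. It measured 1.04 to 11.1 in VPA and 5.41 to 27.1 in VPA_OCA (7.60 ± 3.505 and 17.3 ± 7.64; limma adjusted p = 0.39), and like Tmprss4 it was highest in VPA_OCA replicate 3 and lowest of that group in replicate 4. Within VPA the likeness did not hold. There BC049352 was highest in replicate 3 and lowest in replicate 5, and Tmprss4 was highest in replicate 4 and lowest in replicate 6. The antisense model Gm17099 faces 412 of the 2589 exon bases of Tmprss4 (15.9%) and was at 0 in 11 of the 12 libraries. The flanking genes Scn4b, a sodium channel subunit (4.36 ± 1.11 and 2.74 ± 1.62; limma adjusted p = 0.65), and Il10ra, the interleukin 10 receptor (81.5 ± 15.7 and 83.7 ± 18.5; limma adjusted p = 0.99), did not pass.

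Dnah1 stood alone at its locus. The tumour suppressor gene Bap1 ends 431 bases from the 3' end of Dnah1 and measured 659 ± 62.4 and 699 ± 74.0 (limma adjusted p = 0.86). On the other side Capn7 measured 589 ± 83.8 and 612 ± 33.5 (limma adjusted p = 0.91). The antisense model inside Dnah1, which faces 551 of its 13043 exon bases, was listed at 0 in all 12 libraries.

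**Figure D5:**
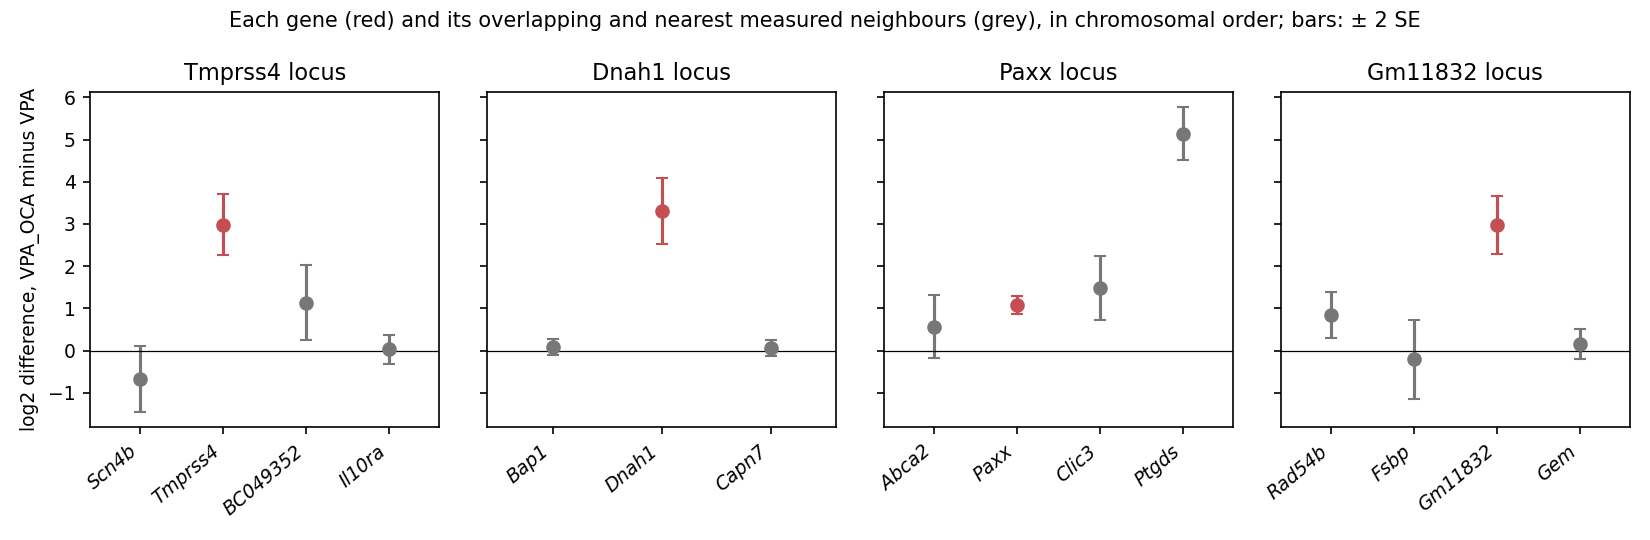
Log2 difference of VPA_OCA minus VPA with ± 2 SE (vertical axis) for each of the 4 genes (red) and for the genes that overlap it or lie nearest to it (grey), in the order of their start on the chromosome. Ptgds reaches 5.14 beside Paxx at 1.08, whereas Bap1 (0.08) and Capn7 (0.06) beside Dnah1 (3.30) lie near 0.

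The genes whose library pattern was most like that of each member, after group means were subtracted, were sought among the named genes with a mean of at least 20 normalized counts. For Tmprss4 they were Tfpi2 (r = 0.93), Appbp2 (0.89) and Fyb2 (0.87), over 12 libraries. For Dnah1 they were Sucnr1 (0.88), Iqcb1 (0.86) and Sntb1 (0.85). For Paxx they were Adgrl4 (0.91), Tonsl (0.90) and Agpat5 (0.90), and for Gm11832 Apof (0.87), Pmpca (0.80) and Creb5 (0.79). Values of this size are the highest of 11333 or 11334 genes searched with 12 libraries, and no test was made. Of these 12 genes, Fyb2 alone passed the comparison of VPA_OCA with VPA, from 93.5 ± 17.6 to 158 ± 14.3 (SD, n = 6 each; limma adjusted p = 0.0100).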

How the data were processed

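Liver RNA libraries (TruSeq, Trizol extraction, per the labels' protocols) of 6 VPA and 6 VPA_OCA mice were analysed from 1 table of the whole series. Each column name equals a sample title, and 0 per-sample columns went unused. The submitters' processing notes name edgeR and the build GRCm38.p5; for the aligner, counter, annotation and strand setting, the sources used here give nothing.

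Per the file headers, the authors deposited a normalized count signal and an FPKM value for every gene and library. The FPKM equals the normalized count over gene length and column total. A log2 ratio, the fraction of GC and the model length also come from the authors' deposited table. Cells with a decimal comma (218 per-library cells) had lost the decimal point and were corrected by dividing by 1000; no member's value was affected. The commonest low value of a library was taken as the worth of 1 read. Of the values up to 20 such steps, 79.6% to 84.6% lay within 0.1 of a whole number of reads, so no count test was used between groups. The read numbers given for the members are rounded. The exact intervals of Dnah1 and Gm11832 are binomial intervals on the sums of these rounded reads.

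Genes with at least 1 normalized count in at least 6 libraries were kept (19006). After adding 1 and taking log2, groups were compared in R 4.3.3 using limma 3.58.1 with an intensity trend. P-values were adjusted by Benjamini-Hochberg over all kept genes (threshold 0.05). The fit was also run on simulated data. There, differences were planted only in genes with a higher mean than Dnah1 and Gm11832, and no set difference lay beside a group difference. The simulation therefore does not cover genes as low as these or libraries that also differ by set. Same-numbered VPA and VPA_OCA libraries had r from 0.15 to 0.48 over 11481 genes after group means were subtracted. The best-matching VPA_OCA library carried the same number only for VPA replicates 3 and 5, though it always lay in the same number set. Pairing by number is therefore not shown. A replicate block was fitted as an alternative, as were other pseudocounts, filters, scalings and libraries left out. The labels give no batch; p-values measure the spread between these mice.

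Named are the members, their overlapping and nearest kept neighbours, the 3 genes most like each in pattern, the genes of each list past the threshold with up to 3 more by p, and up to 3 markers of each list by level. Genes named outside this rule, after their values were seen, are Krt19, Krt7, Muc1, Cldn7, Krt23, Acta1, Muc2, Tmprss6, Scnn1a, Xrcc6, Prkdc, Cdkn1a, Mdm2, Foxj1, Rsph1, Lyve1, Cela2a, Hnf4a, Epcam, Elf3 and those listed at 0. Members and lists were chosen with earlier results of these data known. Positions are those of the authors' table and GENCODE M21 (GRCm38); figures were drawn with matplotlib 3.10.9.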

Additional observations from a re-analysis of the deposited data

Results flagged for a closer look

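In 11 of 90 groups of 6 values (45 genes whose group values are printed: the members, their neighbours, the list genes that passed and 26 others), 1 library stood far from the other 5. Chance flags about 1 in 20 groups, and Krt19, Muc1, Cldn7 and Acta1 were picked after their values were seen. Tmprss4 measured 55.4 normalized counts in VPA replicate 4, against 9.49 to 20.1 in the others of its group. In the same library Acta1 measured 164, against 0 to 24.9, and Muc1 3.02, against 7.02 to 8.61. BC049352, which overlaps Tmprss4 on the opposite strand, measured 1.04 in VPA replicate 5, against 7.38 to 11.1. In VPA_OCA replicate 3 Krt19 measured 98.0, Muc1 102 and Cldn7 17.7. Hpn measured 7723 in VPA replicate 1, against 8435 to 8636, and Scnn1a 362 in the same library, against 632 to 775. Tmprss7 measured 1.04 in VPA_OCA replicate 2 and was at 0 in the others of that group, and Xrcc5 measured 594 in VPA_OCA replicate 6, against 476 to 519.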

How the results depend on the processing

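Settings that change only the filter, the trend or the model terms leave a member's VPA_OCA minus VPA difference as it is. Leaving out 1 of 6 libraries of a group must keep it within 1 SD of the libraries, and the choice of the members fixes its direction. Of 103 values of this difference under other settings, 96 moved by less than 1 SD, a count that therefore says nothing of stability. The others, on scales that weigh low values differently, were 1.72 for Tmprss4 on log2(FPKM + 1); 4.69 (pseudocount 0.1), 1.98 (pseudocount 5) and 0.16 (FPKM) for Dnah1; and 3.597, 1.86 and 1.39 for Gm11832. With 1 library left out the log2 difference was 2.81 to 3.31 for Tmprss4, 3.09 to 3.49 for Dnah1, 1.03 to 1.14 for Paxx and 2.86 to 3.22 for Gm11832. With a filter of at least 10 in 6 libraries Gm11832 was not tested and has no value.

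The 137 genes called became 210 with the replicate block and 404 with the term for the number sets, and 92 to 146 with 1 library left out; the cause was not tested. The block ended the call of Corin and is given beside it. In all, Corin lost its call in 16 other settings and kept it in 10. Cyp8b1 lost its call in 1 and kept it in 25. Cdh1 was also not called without the filter, without the trend, with FPKM, in numbers 1 to 3 alone, or without VPA replicates 4 and 5 (limma adjusted p from 0.057 to 0.15).

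The reversals were of differences that passed in no setting. For libraries 4 to 6 minus 1 to 3, Tmprss4 ranged from -0.46 to 0.094 with 1 library left out (0.025, 0.080, 0.094 and 0.044 without VPA replicates 5 and 6 and VPA_OCA replicates 3 and 4) and Gm11832 from -0.070 to 0.41; Dnah1 gave -0.17 without VPA replicates 4 and 5. The difference between sets in the group difference was -0.94 to 0.28 for Tmprss4 with 1 library left out and 0.40 without VPA replicates 4 and 5. For Dnah1 it was -0.70 to 0.37, 1.12 without those 2, 0.032 with pseudocount 5 and 0.0081 with FPKM. Il10ra ranged from -0.031 to 0.12 and was -0.12 in numbers 4 to 6. Capn7 was -0.020 without VPA replicates 4 and 5 and -0.059 in numbers 1 to 3. Fsbp ranged from -0.50 to 0.13, with 0.015 for FPKM and 0.88 in numbers 1 to 3. Dnah1 and Gm11832 rest on 8 and 9 reads in VPA, which limits their ratios.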
